A study of Rattus norvegicus with 12 samples.

Results

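Pontine infarction, a stroke of the pons in the brainstem, was compared with the sham group coded PN in rat brain by bulk RNA sequencing. The comparison used the columns of the deposited count table that carry the codes of the 3 pontine infarction samples (PI) and of the 3 PN controls, 6 of the 12 libraries in the series. All samples came from Sprague Dawley rats at postnatal day 21, and RNA was taken from brain with Trizol. The other libraries are 3 from middle cerebral artery occlusion (MCAO), a stroke of the cerebral hemisphere, and 3 from shams coded LN. PI was set against PN because both codes start with the same letter. Which piece of brain was taken, how long after the stroke, and what the sham operation involved are not stated in the labels. They speak of 3 rats with each stroke and do not name the animals behind the shams, so the p-values measure the spread between these libraries.

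The pons carries descending motor tracts, the nuclei that relay cortical signals to the cerebellum and many cranial nerve nuclei, and much of its volume is myelinated axons. After ischaemia, microglia and blood-borne phagocytes clear debris, astrocytes enlarge and fill with intermediate filaments, and oligodendrocytes and their lipid-rich myelin are vulnerable. Microglia are the resident macrophages of the brain, and they divide after injury.

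Library totals ran from 19805815 to 38722682 counts after PI and from 22766142 to 29905241 in sham PN. The PN libraries carried hindbrain genes: the hindbrain patterning gene Hoxb3 stood at 6.66 to 7.94 CPM (counts scaled to the size of each library) and was 0 in every sham LN library. PI 3 stood apart in cerebellar genes. Pcp2, a Purkinje cell gene, stood at 4.94, 0.189 and 0.287 CPM in the 3 PN libraries and at 0.372, 0.117 and 58.2 CPM in PI 1, 2 and 3. Neurod1 and Cbln3, genes of granule cells, reached 70.8 and 73.7 CPM in PI 3 against at most 1.26 and 0.304 CPM in the other PI libraries. In PN 1, 2 and 3, Neurod1 stood at 3.91, 0.869 and 0.575 CPM and Cbln3 at 3.48, 1.89 and 1.98 CPM. For Cbln3, PI 1 and 2 thus lay below every sham. Alpha globin transcripts were also uneven, with Hba1 at 15.7, 15.8 and 18.5 CPM in sham PN and 83.1, 17.6 and 92.4 CPM in PI. The part that tissue makeup and blood play in the results was not tested, and in bulk tissue fewer cells of a type and less RNA per cell cannot be told apart. Of 741 symbols that RefSeq places on the X chromosome, 724 were listed at 0 in all 12 libraries, so these genes, including Timp1 and Cybb, gave no measurement.

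Of 17008 genes tested, 546 rose (3.21%) and 148 fell (0.87%) after PI, 694 in all (4.08%), with edgeR's quasi-likelihood test at an adjusted p under 0.05. Those that rose included phagocyte, complement, reactive astrocyte and cell division genes, and those that fell included cholesterol synthesis and myelin lipid genes. The changes differed in size: 526 of the genes that rose did so by at least 2-fold, and 54 of those that fell. The median log2 change over all genes tested was -0.08. PI and sham PN libraries did not overlap for 693 of the 694 genes; over all tested genes, every PI library was higher for 13.3% and lower for 18.7%.

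The number of calls depended heavily on single libraries. Without PI 1, 2 or 3, edgeR called 431, 965 and 310 genes. Leaving out sham PN 1, 2 or 3 left 182, 52 and 6 genes. The 6 that passed in every such fit all rose: Itgax, Clec7a, Olr1, Anxa3, Aspg and LOC100363332. All other calls described here were lost without sham PN 3. DESeq2 called 1738 genes and limma voom 315.

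**Figure D1:**
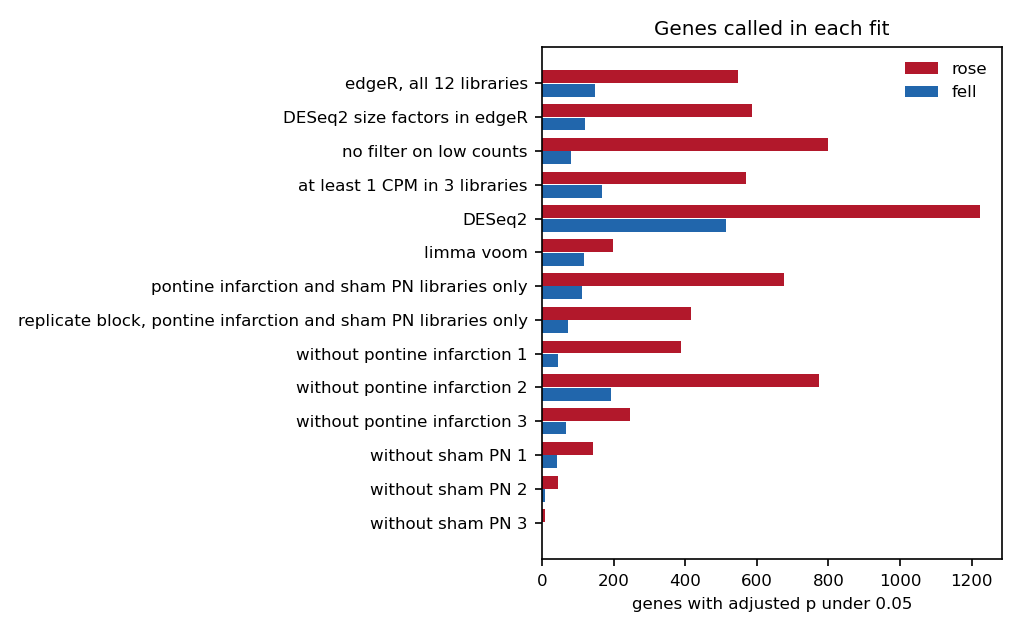
Number of genes with adjusted p under 0.05 (horizontal axis) that rose (red bars) or fell (blue bars) after pontine infarction, for each fit named on the vertical axis. The count runs from 546 and 148 with edgeR on all 12 libraries to 6 and 0 without sham PN 3.

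**Figure D2:**
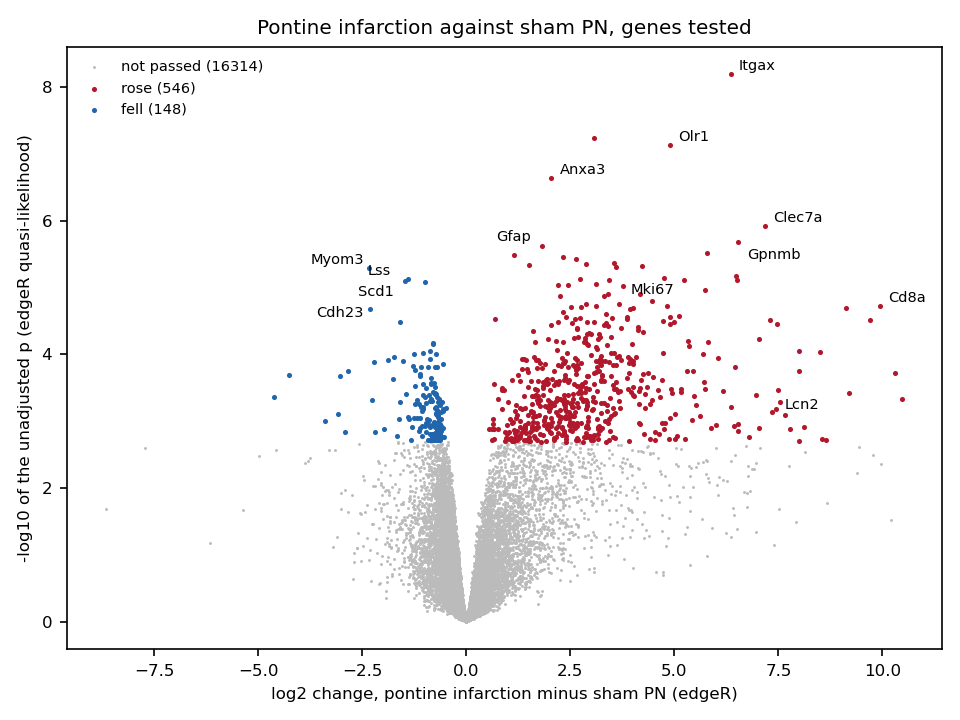
Each point is 1 of 17008 genes: log2 change from sham PN to pontine infarction (horizontal axis) against -log10 of the unadjusted p (vertical axis), with genes that rose in red and those that fell in blue. The 546 genes that rose reach larger log2 changes than the 148 that fell, and Itgax has the smallest p of the genes named.

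Itgax, the integrin alpha chain CD11c of myeloid cells, had the smallest p of all genes tested. It stood at 0.172, 0.227 and 0.18 CPM in PN 1, 2 and 3 and at 13.6, 13.1 and 21.6 CPM in PI 1, 2 and 3. The groups did not overlap and the PI libraries lay close together (log2 change 6.35, SE 0.43, adjusted p = 1.1e-04). Olr1, a scavenger receptor for oxidised lipoprotein, stood at 0.395 to 0.68 CPM in the shams and 14.4, 10.8 and 20.9 CPM in PI (log2 change 4.88, SE 0.41, adjusted p = 4.2e-04). Every PI library was likewise above every sham for Anxa3, a calcium-dependent membrane-binding protein, at 38 to 43.2 CPM in the shams and 159.6, 124 and 226 CPM in PI (log2 change 2.04, SE 0.19, adjusted p = 9.7e-04). Clec7a, the receptor Dectin-1 for fungal glucans, stood at 0.043 to 0.287 CPM in the shams and 11.1, 9.33 and 42.7 CPM in PI 1, 2 and 3, highest in PI 3 (log2 change 7.18, SE 0.78, adjusted p = 0.0041).

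Of 29 genes of activated phagocytes tested, 17 rose and none fell, with a median log2 change of 2.78; without PI 3, 10 rose. Gpnmb, a membrane glycoprotein of lipid-laden macrophages, stood at 8.64, 6.95 and 8.55 CPM in PN 1, 2 and 3 and 311, 345 and 1593 CPM in PI 1, 2 and 3 (log2 change 6.54, SE 0.75, adjusted p = 0.0051). PI 3 was several-fold above the other PI libraries, and all were far above the shams. Lgals3, the lectin galectin-3, stood at 4.08 to 6.11 CPM in the shams and 154, 103 and 542 CPM in PI (log2 change 5.73, SE 0.78, adjusted p = 0.0059). Spp1, the secreted protein osteopontin, was already at 106 to 132 CPM in the shams and reached 861, 278 and 1591 CPM (log2 change 2.91, SE 0.61, adjusted p = 0.025). Cd68, a lysosomal protein of phagocytes, and Tyrobp, the adaptor of several activating receptors, rose by 5.31 and 3.53 on the log2 scale. Trem2, a lipid receptor that signals through Tyrobp, did not pass: it stood at 6.23, 7.67 and 4.74 CPM in the shams and 4.65, 21.9 and 101 CPM in PI, so PI 1 lay below every sham and PI 3 far above them (adjusted p = 0.075).

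All 6 tested subunits of the phagocyte NADPH oxidase and its partners rose (4 without PI 3, none with limma voom), with a median log2 change of 3.51. This enzyme makes superoxide, and its cytosolic subunit Ncf4 stood at 0.395 to 0.946 CPM in the shams and 34.8, 9.8 and 26.6 CPM in PI (log2 change 5.23, SE 0.69, adjusted p = 0.0054). Cybb, the catalytic subunit, is X-linked and listed at 0. All 4 Fc gamma receptors, which bind antibody-coated particles, rose, Fcgr3a the most (log2 change 4.17, SE 0.57, adjusted p = 0.0064). Among 9 Toll-like receptors, sensors of microbial and damage molecules, 4 rose: Tlr1, Tlr2, Tlr4 and Tlr9. Tlr2 stood at 5.33, 5.1 and 3.09 CPM in the shams and 52.1, 14.9 and 31.1 CPM in PI. Both receptor families were picked after their values were seen, and reads could be shared between close relatives such as Fcgr2a and Fcgr2b.

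Complement opens with C1q, which tags debris for uptake, and acts through receptors on phagocytes. Of 22 complement genes, 11 rose and none fell (7 without PI 3), with a median log2 change of 2.34. The C1q chains C1qa, C1qb and C1qc rose by 1.84, 2.32 and 2.51 on the log2 scale. C1qb stood at 32.4 to 37.7 CPM in the shams and 125, 104 and 294 CPM in PI. Of the receptors, Itgam, a chain of complement receptor CR3, stood at 9.93, 7.56 and 8.01 CPM in the shams and 117, 59.9 and 119 CPM in PI (log2 change 3.54, SE 0.44, adjusted p = 0.0051). C3, the central component, was at 10.3 to 15.2 CPM in the shams and 619, 46.4 and 55.8 CPM in PI and did not pass (adjusted p = 0.057). PI 1 was over 10 times the other PI libraries.

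Resting microglia markers moved less. Of 18 tested, 4 rose (none without PI 3) and the median log2 change was 0.42. The 4 were Csf1r, the receptor that keeps microglia alive, Aif1, Tgfbr1 and Fcrl2. Csf1r stood at 109, 132 and 142 CPM in the shams and 183, 269 and 586 CPM in PI, a rise led by PI 3 (log2 change 1.44, SE 0.35, adjusted p = 0.043). P2ry12 and Tmem119, surface proteins of resting microglia, did not pass. P2ry12 stood at 13.7, 12.1 and 8.48 CPM in the shams and 3.21, 15.8 and 15.8 CPM in PI, and Tmem119 at 33.7, 33 and 45.6 and 13.6, 36.9 and 57.3 CPM. For both, PI 1 lay below every sham and PI 3 above. The median over the list stood -0.37 from the sham mean in PI 1, 0.53 in PI 2 and 1.07 in PI 3 on the log2 scale.

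**Figure D3:**
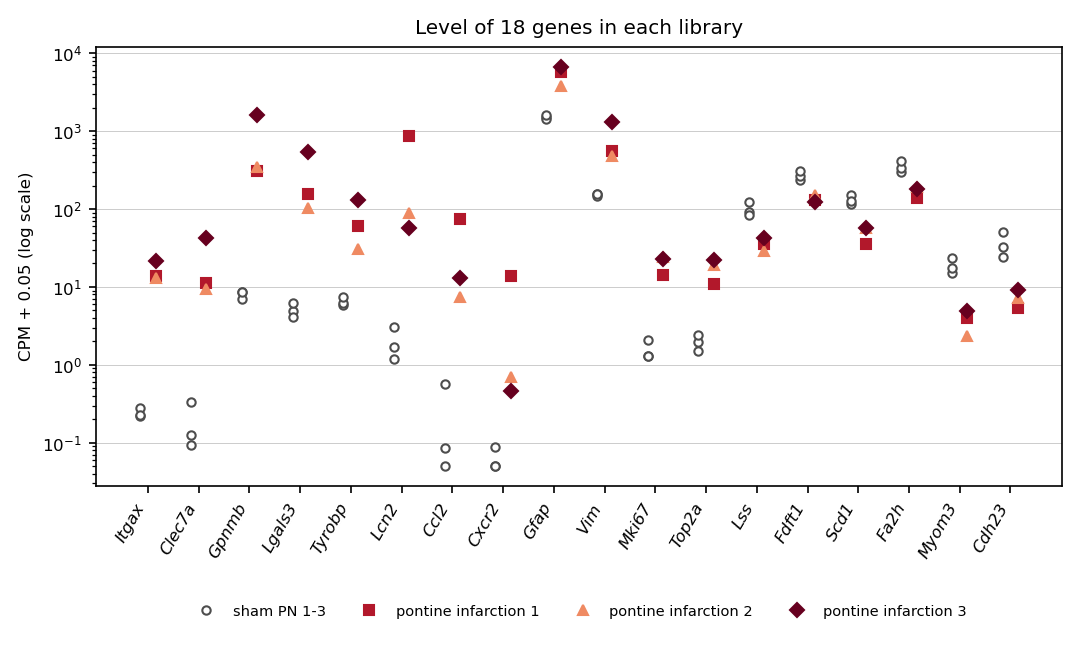
CPM plus 0.05 on a log axis (vertical) for 18 genes (horizontal), with open circles for the 3 sham PN libraries and filled symbols for pontine infarction 1, 2 and 3. Phagocyte, astrocyte and cell division genes lie above the shams in every PI library, PI 1 is far above PI 2 and 3 for Lcn2, Ccl2 and Cxcr2, and the 6 genes from Lss on lie below the shams.

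Neutrophil, chemokine and acute phase genes were highest in PI 1. The median log2 CPM of 18 neutrophil and monocyte markers lay 6.29 above the sham mean in PI 1, 2.61 in PI 2 and 3.59 in PI 3, and 10 of the 18 rose (9 without PI 3, 5 without PI 1, none with limma voom). Cxcr2, the receptor that draws neutrophils, stood at 0, 0.0378 and 0 CPM in the shams, which is 1 count, and at 13.7, 0.655 and 0.411 CPM in PI (adjusted p = 0.039). Lcn2, an iron-carrier binding protein of neutrophils and reactive astrocytes, stood at 3.05, 1.66 and 1.15 CPM in the shams and 871, 88 and 57.9 CPM in PI (log2 change 7.45, SE 1.61, adjusted p = 0.028). The calgranulins S100a8 and S100a9, abundant neutrophil transcripts, were at 30.1, 0.561 and 0.748 CPM and 67.9, 1.36 and 1.72 CPM in PI and did not pass (adjusted p = 0.093 and 0.074). Trem3 had no count in any sham library and 5.58, 0.515 and 2.24 CPM in PI; against a floor of 3 counts over the sham group, it was at least 57.4-fold higher.

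Of 25 chemokines, 6 rose: Ccl2, Ccl3, Ccl4, Ccl6, Ccl7 and Ccl12 (5 chemokines without PI 3, 3 without PI 1, none with limma voom). Ccl2, which recruits monocytes, stood at 0.516, 0 and 0.0359 CPM in the shams and 74.1, 7.34 and 13.2 CPM in PI (log2 change 7.49, SE 1.49, adjusted p = 0.021). None of the CXC chemokines on the list passed. Cxcl1, a ligand of Cxcr2, was at 44.9, 1.22 and 0.598 CPM in PI with 1 count in the shams (adjusted p = 0.06), and Cxcl10 at 101, 2.01 and 10.5 CPM (adjusted p = 0.067). Of 19 genes on the cytokine list 5 rose, Il1rn, Clcf1, Il18, Tgfb1 and the receptor gene Il1rl1, and the list median was 3.54. Il1b, the main secreted interleukin-1, stood at 88.1, 2.2 and 0.972 CPM in PI against 0 to 0.731 in the shams and did not pass (adjusted p = 0.06), with PI 3 close to the sham range. Csf2rb, the shared receptor chain for interleukin-3, interleukin-5 and GM-CSF, stood far above the shams in every PI library: 1.33, 1.59 and 1.11 CPM in the shams and 136, 31.6 and 53.6 CPM in PI (log2 change 5.77, SE 0.69, adjusted p = 0.0051).

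PI 3, by contrast, led most of the genes that rose. It was the library farthest from the shams for 375 of the 546, PI 1 for 162 and PI 2 for 9, and PI 2 was the nearest for 380. The highest PI library was a median 2.81 times the lowest. Cd8a, the co-receptor of cytotoxic T cells that rat macrophages and microglia can also carry, stood at 0, 0 and 0.0719 CPM in the shams, which is 2 counts, and 13.2, 2.9 and 73.2 CPM in PI (adjusted p = 0.0076). Its partner chain Cd8b also rose and stood at 2.7, 0.515 and 12.3 CPM in PI. These were the 2 of 10 lymphocyte markers tested that rose, where the list median was 1.34. Cd4, on the same list, stood at 13.4, 10.8 and 13.6 CPM in the shams and 11, 21.4 and 29.6 CPM in PI. The groups overlapped and it did not pass (adjusted p = 0.22). Lck, also on the list, had 232 counts in PI and 190 in the shams. Several other T and killer cell genes had few counts: summed over the 3 libraries of each group, Cd3e of the T cell receptor complex had 24 in PI and 3 in the shams. Cd2, a T and killer cell adhesion protein, had 65 and 2 (adjusted p = 0.16 for Cd3e and 0.083 for Cd2). Cd3d and Cd3g, not tested, had 1 and 20 counts in PI and 5 and 1 in the shams. Nkg7, of cytotoxic granules, had 29 and 7 (adjusted p = 0.38), and Prf1, the pore-forming perforin, 28 and 5. Siglec1, a sialic acid receptor of border macrophages, was at 0.68 to 1.29 CPM in the shams and 13.3, 15.1 and 113 CPM in PI (log2 change 5.74, SE 1.14, adjusted p = 0.021). PI 3 is the library with the cerebellar genes described above; without it 244 genes rose and 66 fell.

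Some genes of reactive astrocytes rose, Gfap among them. Gfap, the intermediate filament of astrocytes, stood at 1514, 1422 and 1623 CPM in PN 1, 2 and 3 and 5733, 3762 and 6684 CPM in PI 1, 2 and 3. The groups did not overlap (log2 change 1.83, SE 0.21, adjusted p = 0.0051). Vim, another filament protein also made by phagocytes, stood at 147 to 157 CPM in the shams and 565, 479.7 and 1298 CPM in PI (log2 change 2.35, SE 0.49, adjusted p = 0.024). Of 33 reactive astrocyte genes 13 rose and none fell (10 without PI 3), with a median log2 change of 2.07. Aspg, an asparaginase-like enzyme, stood at 0.903, 0.491 and 1.15 CPM in the shams and 6.98, 4.98 and 6.73 CPM in PI (log2 change 2.87, SE 0.36, adjusted p = 0.0051). The PI libraries were further apart for Socs3, a feedback inhibitor of STAT3 signalling, at 1.4 to 2.92 CPM in the shams and 199.6, 25.6 and 31.4 CPM in PI (log2 change 5.35, SE 0.90, adjusted p = 0.012). Among 24 general astrocyte markers, Glul, which makes glutamine, rose by 0.63 and Fgfr3, a growth factor receptor, fell by 0.75 on the log2 scale. That is 8.33% called, where 4.08% of all genes tested were called in either direction. Of the 6 fits leaving out 1 library, Glul passed in 1 and Fgfr3 in 3. The list median was -0.36.

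Interferon-stimulated genes were higher in PI 1 and 3 than in PI 2. Of 33 tested, 5 rose, 22 without PI 2, 2 without PI 1 or PI 3 and none with limma voom, and the median log2 change was 2.02. Mx1, an antiviral GTPase, stood at 2.71, 2.61 and 2.23 CPM in the shams and 36.6, 11.3 and 107 CPM in PI (log2 change 4.36, SE 0.81, adjusted p = 0.017). Ifit3, an antiviral protein that binds RNA partners, stood at 0.97 to 2.32 CPM in the shams and 29.3, 2.78 and 10.5 CPM in PI, nearest the shams in PI 2 (log2 change 3.19, SE 0.75, adjusted p = 0.038). The interferon-stimulated response element, searched as GAAANNGAA on both strands in the 250 bases before the start site, was found in 14 of 24 promoters of these genes and in 6.31% of 11027 promoters of tested genes. The sequences of the 2 called members with it come from RefSeq (GRCr8), with the element in capitals, at chr1:241527216-241527325 (plus strand) and chr16:18254989-18255098 (minus strand).
Ifit3: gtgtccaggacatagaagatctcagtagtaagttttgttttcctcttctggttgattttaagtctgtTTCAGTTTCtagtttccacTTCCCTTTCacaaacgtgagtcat
Bst2: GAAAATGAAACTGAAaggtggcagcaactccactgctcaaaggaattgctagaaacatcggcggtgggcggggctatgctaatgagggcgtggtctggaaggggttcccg
Bst2, a membrane tether for budding virions, stood at 6.23 to 7.18 CPM in the shams and 32.6, 14.6 and 58.5 CPM in PI (log2 change 2.38, SE 0.45, adjusted p = 0.018). A match of letters is no test of binding.

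Further immune groups rose in part. Of 15 inflammasome and lytic cell death genes, 8 rose (5 without PI 3), among them the sensor Nlrp3, its adaptor Pycard and the protease Casp1. Casp1 stood at 1.55, 1.28 and 1.11 CPM in the shams and 7.86, 4.96 and 7.59 CPM in PI, all above the shams (log2 change 2.37, SE 0.42, adjusted p = 0.015). Of 26 antigen presentation genes 7 rose (2 without PI 3), including Cd86, a co-stimulator of T cells, at 0.989, 0.718 and 1.04 CPM in the shams and 4.28, 5.64 and 14.5 CPM in PI (log2 change 3.14, SE 0.53, adjusted p = 0.013). Cd80, its relative, had no sham count; setting the sham group's sum to 3 counts makes it at least 19-fold higher in PI. Of 26 lysosomal genes 7 rose (1 without PI 3), including the protease Ctsz at 23.2, 19 and 20.6 CPM in the shams and 187, 105 and 350.0 CPM in PI (log2 change 3.35, SE 0.50, adjusted p = 0.0085). Their median log2 change was 0.90, and the median over the list in PI 3 stood 1.52 above the sham mean against 0.27 in PI 1.

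Cell division genes were higher in all 3 PI libraries. Of 35 tested, 25 rose and none fell (19 without PI 3), all 35 log2 changes were positive and 33 genes had every PI library above every sham. Over all genes tested, 3.21% rose, 41.9% had a positive log2 change and 13.3% had every PI library higher. The median log2 change was 2.45. Mki67, a protein of dividing cells, stood at 1.25, 2 and 1.26 CPM in the shams and 14, 24.4 and 22.7 CPM in PI, lowest in PI 1 (log2 change 3.76, SE 0.50, adjusted p = 0.0054). Top2a, which untangles DNA before mitosis, stood at 1.93, 2.34 and 1.44 CPM in the shams and 10.7, 19.1 and 22.2 CPM in PI (log2 change 3.19, SE 0.57, adjusted p = 0.015). Ube2c, the ubiquitin enzyme of the anaphase-promoting complex, had the largest log2 change of the list, 4.47, and Bub1b and Ect2, of the spindle checkpoint and of cytokinesis, followed at 4.01 and 3.99. Of the 6 subunits of the replicative helicase, Mcm2, Mcm3, Mcm5 and Mcm6 rose; Mcm3 stood at 2.92 to 3.09 CPM in the shams and 14.7, 13.9 and 27.4 CPM in PI (log2 change 2.63, SE 0.32, adjusted p = 0.0051). No gene of the list exceeded 53.8 CPM, the level of Pcna in a PI library.

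The promoters of cell division genes commonly hold a CCAAT box and the cell cycle homology region (TTTGAA). On both strands of the 250 bases before the start, CCAAT was found in 21 of 27 promoters of the list against 34.3% of all, and TTTGAA in 10 of 27 against 10.4%. Of 8 called members with both, the 5 with the largest log2 changes are shown, with the elements on either strand in capitals. They lie at chr2:111966672-111966781 (minus strand), chr1:199952673-199952782 (minus strand), chr10:84473094-84473203 (minus strand), chr1:143659371-143659480 (plus strand) and chr20:19265183-19265292 (plus strand) in GRCr8, from RefSeq.
Ect2: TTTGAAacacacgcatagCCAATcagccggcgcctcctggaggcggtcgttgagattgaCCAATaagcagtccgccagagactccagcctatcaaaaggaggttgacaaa
Mki67: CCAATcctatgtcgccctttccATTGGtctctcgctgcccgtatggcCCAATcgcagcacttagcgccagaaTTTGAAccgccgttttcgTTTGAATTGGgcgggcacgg
Top2a: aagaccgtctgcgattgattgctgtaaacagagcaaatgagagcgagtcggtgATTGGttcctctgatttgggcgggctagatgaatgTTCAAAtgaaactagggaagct
Prc1: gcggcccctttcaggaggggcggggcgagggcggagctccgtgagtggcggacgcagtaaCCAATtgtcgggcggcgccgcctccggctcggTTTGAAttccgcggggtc
Cdk1: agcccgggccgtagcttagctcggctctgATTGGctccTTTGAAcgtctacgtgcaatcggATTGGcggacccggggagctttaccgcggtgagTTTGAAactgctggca
Prc1, which bundles the central spindle, and Cdk1, the mitotic kinase, rose by 2.68 and 2.63 on the log2 scale.

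Cholesterol synthesis genes were lower throughout. All 22 tested had every PI library below every sham, and 13 fell (6 without PI 3), with a median log2 change of -0.85. Over all genes tested, 18.7% had every PI library lower and 0.87% fell. Lss, the enzyme that closes the sterol rings, stood at 91.8, 84 and 122 CPM in PN 1, 2 and 3 and 36, 29 and 43 CPM in PI 1, 2 and 3 (log2 change -1.46, SE 0.19, adjusted p = 0.0054). Fdft1, which makes squalene, stood at 235, 269 and 307 CPM in the shams and 130.1, 152 and 123 CPM in PI (adjusted p = 0.0054). Hmgcs1, an early enzyme of the pathway, stood at 569 to 813 CPM in the shams and 255, 423 and 220.2 CPM in PI (log2 change -1.25, SE 0.28, adjusted p = 0.034). Insig1 and Srebf2, which govern sterol sensing, did not pass, with log2 changes of -0.88 and -0.43. Of 16 fatty acid synthesis genes, Fasn, Scd and Acss2 fell; Scd, a fatty acid desaturase, stood at 8720.2 to 9009 CPM in the shams and 4784 to 6019 CPM in PI. A second desaturase, Scd1, stood at 152, 118 and 128 CPM in the shams and 35.8, 57.7 and 57.3 CPM in PI (log2 change -1.40, SE 0.18, adjusted p = 0.0054); reads could be shared between these near-identical genes.

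Sterol genes also share the CCAAT box, a site of the factor NF-Y, which was found in 12 of 15 promoters of the list against 34.3% of all. The sterol regulatory element, searched as TCACNCCAC, was found in none of the 15 and in 1.06% of all promoters. With so rare a string, 15 promoters are too few to tell the list from the rest. Other spellings of the element were not searched. Of 7 called members with CCAAT, the 4 with the largest log2 changes are shown, which lie at chr20:12118231-12118340 (minus strand), chr2:53382116-53382225 (plus strand), chr1:212789542-212789651 (minus strand) and chr13:84722755-84722864 (minus strand) in GRCr8, from RefSeq, with the box on either strand in capitals.
Lss: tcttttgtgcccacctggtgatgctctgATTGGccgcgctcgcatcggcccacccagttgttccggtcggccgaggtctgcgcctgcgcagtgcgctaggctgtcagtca
Hmgcs1: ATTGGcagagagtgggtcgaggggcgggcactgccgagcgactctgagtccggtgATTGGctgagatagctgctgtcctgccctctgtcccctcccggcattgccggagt
Tm7sf2: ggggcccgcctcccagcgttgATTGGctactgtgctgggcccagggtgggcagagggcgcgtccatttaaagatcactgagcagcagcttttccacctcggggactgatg
Hsd17b7: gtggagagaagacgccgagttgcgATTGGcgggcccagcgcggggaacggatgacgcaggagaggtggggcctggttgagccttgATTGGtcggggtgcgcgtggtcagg
Tm7sf2, a sterol reductase, and Hsd17b7, a ketoreductase of the same pathway, fell by 1.12 and 1.05 on the log2 scale.

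Myelin genes were lower in most cases. Of 27 tested, 26 had a negative log2 change and 5 fell (1 without PI 3): Mog, Mal, Ugt8, Fa2h and Enpp6, with a list median of -0.69. Over all genes tested, 41.9% had a positive log2 change and 0.87% fell. Fa2h, which hydroxylates myelin fatty acids, stood at 301, 337 and 418 CPM in the shams and 138, 193 and 179.6 CPM in PI (log2 change -1.05, SE 0.18, adjusted p = 0.014). Mbp, myelin basic protein, was lower in every PI library, at 19180.0 to 21949 CPM against 30435 to 38989, and did not pass (adjusted p = 0.13). The transcription factor Olig2 fell by 0.80 on the log2 scale, the only one of 20 precursor genes to pass. That is 5%, where 0.87% of all genes tested fell and 4.08% were called in either direction. Of the 6 fits leaving out 1 library, Olig2 passed in 1, and without PI 3 the precursor genes gave 0 falls.

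Among the genes that passed with a mean of at least 5 CPM in the higher group, the largest falls were in LOC100359748, Myom3, Cdh23 and Hoxb3. Myom3, a muscle sarcomere protein, stood at 15.2, 23.5 and 17.5 CPM in the shams and 3.91, 2.32 and 4.86 CPM in PI (log2 change -2.35, SE 0.30, adjusted p = 0.0051). Cdh23, a cadherin of hair cells, stood at 24.5, 32.1 and 50.8 CPM in the shams and 5.3, 7.25 and 9.05 CPM in PI (log2 change -2.31, SE 0.34, adjusted p = 0.0076). Hoxb3 stood at 6.66, 6.8 and 7.94 CPM in the shams and 0.93, 1.47 and 2.06 CPM in PI (log2 change -2.25, SE 0.39, adjusted p = 0.025). All 9 tested Hox genes had a negative log2 change, and Hoxb3 was the only 1 of them to pass. Over all genes tested, 41.9% had a positive log2 change. Hoxc4 stood at 4.77 to 7.87 CPM in the shams and 0.233, 1.22 and 5.35 CPM in PI, so PI 3 lay within the sham range (adjusted p = 0.3). Hox genes mark the caudal hindbrain, and the part that tissue makeup plays in these values was not tested. Thrsp, a regulator of fatty acid synthesis, and Heyl, a Notch target, stood at 15.9, 23.5 and 35 CPM and 22.4, 50.5 and 34.2 CPM in PI, below 79.4 to 107 and 98.3 to 112 CPM in the shams.

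The synaptic and ion channel lists had medians below that of all genes, and 1 of their members passed. Of 32 synaptic genes 1 fell (3.13%), where 0.87% of all genes tested fell and 4.08% were called in either direction. It was Cplx1, which clamps vesicle fusion, at 945 to 1227 CPM in the shams and 672 to 721 CPM in PI (log2 change -0.61, SE 0.14, adjusted p = 0.034). In every fit leaving out 1 library, 0 synaptic genes fell. The list median was -0.46. None of 27 ion channel genes passed, at a median of -0.48. Of 25 neuropeptide genes tested, 1 fell and 1 rose, at a list median of -0.05. Sst fell by 0.87, while Trh, thyrotropin-releasing hormone, rose by 1.70 on the log2 scale. Of the 6 fits leaving out 1 library, Sst passed in 1 and Trh in 0. Slc17a7, the vesicular glutamate transporter of pontine nuclei and cerebellar granule cells, stood at 231, 317 and 441 CPM in the shams and 20.2, 52.4 and 323 CPM in PI and did not pass (adjusted p = 0.35): PI 1 and 2 lay below every sham and PI 3, the library with granule cell genes, within their range. Without PI 3 its log2 change was -3.18, against -1.32 with it, and it passed (adjusted p = 0.032). Of the 6 fits leaving out 1 library, Slc17a7 passed only in that 1. With the PI and sham PN libraries alone it did not pass (adjusted p = 0.47). The glycine transporter Slc6a5, the serotonin enzyme Tph2 and the acetylcholine enzyme Chat did not pass, with log2 changes of -0.92, -0.34 and -0.51. Genes of endothelium and its barrier (25 tested), matrix and fibroblasts (35) and the nuclear respiratory chain (29) gave no call, at medians of -0.04, 0.62 and -0.22.

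The PI response was set against that of MCAO, which has its own shams. Of the 546 genes that rose after PI, 390 also rose after MCAO, 71.4% of these and 18.3% of the 2131 that rose after MCAO; 55 fell after both, 37.2% of 148 and 5.33% of 1032. No gene passed the test of the difference between the responses with edgeR (0%), where 1826 had an unadjusted p under 0.05; DESeq2 called 238, limma voom 0 and edgeR without a filter on low counts 1. For the cell division list the median log2 change was 2.45 after PI, where 25 rose, and 0.88 after MCAO, where 8 rose, and 18 of 35 members had an unadjusted p of the difference under 0.05, all more positive after PI. For sterol synthesis the medians were -0.85 and -0.12, with 13 and 4 that fell and 15 of 22 members more negative after PI at an unadjusted p under 0.05. For reactive astrocyte genes they were 2.07 and 3.71, with 12 of 33 more negative in the difference and 1 more positive. Over all 17008 genes tested, 1238 were more negative after PI at an unadjusted p under 0.05 and 588 more positive. Other lists leaned in either direction. Of 27 hypoxia and glycolysis genes 15 were more negative and 0 more positive, and of 32 axon regeneration genes 16 and 1. Of 18 resting microglia markers 0 were more negative and 7 more positive, and of 24 general astrocyte markers 0 and 6. The shams differed too: over the same lists, sham LN lay a median -0.85 on the log2 scale from sham PN for sterol synthesis, -0.68 for reactive astrocyte genes and 0.10 for cell division.

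**Figure D4:**
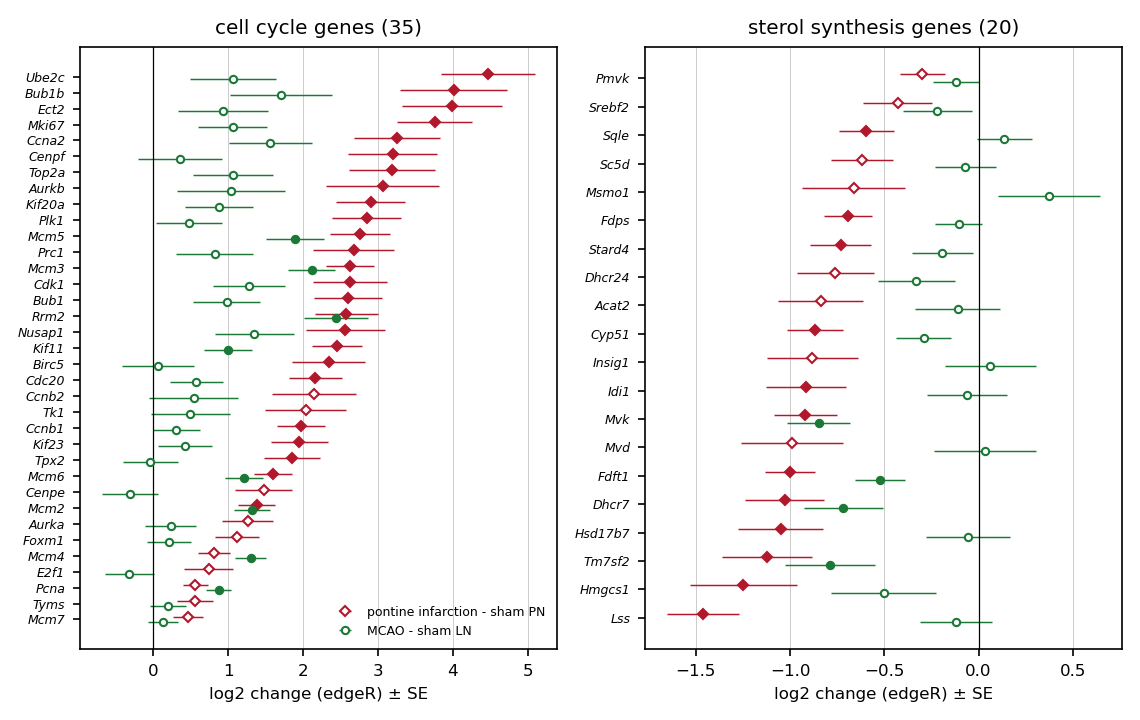
Log2 change ± SE from edgeR (horizontal axis) of 35 cell cycle genes and 20 of the 22 sterol synthesis genes (vertical axis) after pontine infarction (red diamonds) and after MCAO (green circles), each against its own shams, with filled symbols at an adjusted p under 0.05. After PI, 25 cell cycle genes rose and 12 of the sterol genes drawn fell; after MCAO, 8 rose and 4 fell.

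Genes called in opposite directions after the strokes, and others with a small p of the difference, are given as values. Crtac1, a cartilage protein also made in brain, fell after PI, at 69.2 to 94.9 CPM in the shams and 35.4 to 46.6 CPM in PI (log2 change -1.05), and rose after MCAO by 0.99 on the log2 scale (unadjusted p of the difference 4.8e-05, adjusted 0.12). Vash2, a tubulin carboxypeptidase, did the same, at -0.99 and 0.76 (unadjusted p 0.00022, adjusted 0.20). No other gene was called in opposite directions. Spp1 rose after both, by 2.91 and 7.83; its sham means were 121 CPM in PN and 0.713 CPM in LN. Lss and Scd1 fell after PI by 1.46 and 1.40, and had log2 changes of -0.12 and -0.11 after MCAO that did not pass.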

How the data were processed

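The authors deposited raw counts per gene symbol for 12 libraries; per the submitters' processing notes, HISAT2 and the rat build Rnor_6.0 were used, and the labels require an RNA integrity number above 8. The counting program, annotation and strand setting were not given in the sources used here, so overlapping genes and near-identical copies cannot be told apart. Genes were filtered with filterByExpr (minimum count 10, minimum total 15), scaled by TMM and fitted over all 12 libraries with edgeR 4.0.16 in R 4.3.3 (quasi-likelihood test, group as the only term). P-values are two-sided and adjusted by Benjamini-Hochberg over 17008 genes. CPM values use TMM-scaled library sizes. The fit was tested on simulated counts. One MCAO column has a code in no title and was placed in its group by its letters; it enters the shared estimate of the spread and the MCAO values. The contrast, 59 gene lists, promoter motifs and alternatives were chosen with earlier results of these data known. Named genes are the 12 largest changes in each direction with at least 5 CPM in the higher group, up to 3 members per list, a few fixed genes and, named after their values were seen, other list members, receptor families and genes significant in every fit leaving out a library. Alternatives were DESeq2 1.42.0, limma 3.58.1 voom, other scaling and filters, fewer libraries and a replicate block. Promoters matched by symbol for 11027 genes. Log2 CPM per library used a prior count of 2. A few genes are not reported here by name, though the counts over lists include them.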

Additional observations from a re-analysis of the deposited data

How the results depend on the processing

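Leaving out 1 library in turn moved the number of genes called after pontine infarction between 6 and 965, from 6 to 773 for genes that rose and from 0 to 192 for genes that fell; the lowest came without sham PN 3 and the highest without PI 2. The difference between the responses stayed at 0 to 0 in those fits. DESeq2 called 1738 genes, 1224 that rose and 514 that fell, and 238 for the difference, and 692 of its calls were shared with the 694 of edgeR. Limma voom called 315, of which 198 rose. Without a filter on low counts 799 genes rose, 81 fell, and the difference gave 1. A minimum change of 2-fold left 107 genes, 105 that rose and 2 that fell. With DESeq2 size factors in edgeR, 83.1% of the calls had risen, with limma voom 62.9%, without a filter 90.8% and in the main fit 78.7%; the median log2 change of all genes was -0.05 with DESeq2 size factors and 0.01 with the PI and sham PN libraries alone. Same-numbered PI and sham PN libraries had correlations of deviations of 0.048, 0.15 and 0.15 and share only a number; with the replicate block, over the PI and sham PN libraries, 415 genes rose and 72 fell (487 in all, against 788 without the block). Of the 124 genes that passed and were named by the rule given under processing, 1 passed in every fit leaving out a library, 105 passed with the 6 libraries alone and 72 without PI 3. No named gene that passed changed direction in these fits. The 15 that changed sign had not passed. Their log2 changes ran, over the fits leaving out 1 library, from Tjp1 -0.15 to 0.13, Slc13a4 -0.74 to 0.74, Ptgds -0.76 to 0.56, Bcl2l1 -0.24 to 0.070, Cldn5 -0.46 to 0.065, Ppp1r1b -0.47 to 0.18, Tcf7l2 -0.061 to 1.06, Hydin -0.33 to 0.23, Slc17a6 -0.54 to 0.32, Th -0.66 to 0.18, Tph2 -0.96 to 0.025, Itpr1 -0.16 to 1.61, Pmp22 -0.17 to 0.16, Ddx3y -0.98 to 0.0048, Cspg4 -0.25 to 0.054. Without a filter, the reversed log2 changes were Tjp1 0.061. With the PI and sham PN libraries alone, the reversed log2 changes were Tjp1 0.067 and Bcl2l1 0.0012. With the replicate block, the reversed log2 changes were Tjp1 0.050 and Slc13a4 -0.34 and Ptgds -0.15. With limma voom, the reversed log2 changes were Slc13a4 -0.58 and Ptgds -0.28. The cause of these changes was not tested. The biological coefficient of variation over all groups was 0.30, and the smallest library held 19805815 counts.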

Other observations

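Proteases and matrix-modifying genes gave 8 calls among 28, all of which rose (3 without PI 3). Mmp12, macrophage elastase, stood at 0, 0.151 and 0 CPM in the shams and 0.698, 1.82 and 11.3 CPM in PI 1, 2 and 3, and Plau, urokinase, at 0.473, 0.68 and 0.611 and 3.16, 8.91 and 67.1 CPM, both highest in PI 3. Mmp9, gelatinase B of neutrophils, stood at 0.516, 0.756 and 0.18 and 33.2, 5.29 and 6.54 CPM, highest in PI 1. Mmp19 was more even, at 2.66 to 2.76 and 11.2 to 26.5 CPM (log2 change 2.73, SE 0.36, adjusted p = 0.0054). Hmox1, which degrades heme, rose, at 9.93 to 13.6 CPM in the shams and 79.3, 50.9 and 186 CPM in PI (log2 change 3.23, SE 0.62, adjusted p = 0.019). Of 32 genes known from axon regeneration 8 rose (3 without PI 3), among them Atf3 at 0.831 to 1.42 and 16.8, 12 and 25 CPM and the tubulin Tubb6 at 6.93 to 9.41 and 89.2, 34.9 and 84.4 CPM, while Gap43, the growth cone protein, stood at 229 to 270.1 and 200.5 to 289 CPM and did not pass. Gdnf, a neuron survival factor, rose at low levels, at 0.108 to 0.129 CPM in the shams and 1.21 to 1.89 CPM in PI (log2 change 3.63, SE 0.63, adjusted p = 0.015). Of 28 neurotrophin and growth factor genes tested, 2 rose and none fell. That is 7.14%, where 3.21% of all genes tested rose. The list median was 0.10, and 15 of the 28 log2 changes were positive.

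The near absence of X-linked counts holds for the whole table. Of 741 symbols placed on X by RefSeq (GRCr8), 97.7% were at 0 in all 12 libraries, against 12.6% of 19321 autosomal symbols. Hprt1, Pgk1 and Tmsb4x, which almost every cell uses, were among those at 0. Of the 1251 list members found in the table, 26 were X-linked symbols at 0, so the counts of members tested leave them out. The step that removed them was not tested.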
